A study of Mus musculus with 2 samples.

Results

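The cells described here are natural killer (NK) cells of glioma-bearing mouse brain that carry next to no message of the granzymes C, D, E, F and G. Members were chosen by measured counts. A cell entered with at least 500 detected mouse genes, at most 10% mitochondrial unique molecular identifiers (UMIs, each standing for 1 captured RNA molecule), and at least 2 UMIs summed over the NK genes Ncr1, Klrb1c and Klre1. It had at most 1 UMI of Cd3e, Cd3d and Trac, which mark T cells, at most 2 of the division genes Mki67 and Top2a, at most 3 of the myeloid gene Lyz2 and at most 1 of the tumour genes Sox2 and Met. The last condition set the population apart from its sister NK cells: at most 1 UMI over Gzmc, Gzmd, Gzme, Gzmf and Gzmg. It was met by 698 of 9685 filtered cells, 524 of 6575 in the library labelled knockout and 174 of 3110 in the library labelled wild type. They are called Gzmc-low NK cells here (NK without, in the plots), and the 166 NK cells with 2 or more of those UMIs (96 under the knockout label, 70 under the wild type label) are called Gzmc-rich (NK rich).

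NK cells are lymphocytes that kill stressed, infected or malignant cells without prior priming. They store perforin, which opens target membranes, together with granzymes, serine proteases that start cell death once inside the target. Granzymes A and B are the common pair, while in the mouse a tight cluster beside Gzmb encodes granzymes C to G, which are made by some strongly activated or tissue-adapted killer cells. Whether an NK cell fires depends on receptors that activate and receptors that inhibit, among them the Ly49 family (Klra genes), of which each cell uses its own mixture.

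The tissue was brain with a GL261 tumour, harvested 24 days after implantation of GL261, a glioma line of the mouse that stands in for human glioblastoma. The library labelled knockout came from hosts labelled Cav3.2KO with genotype Cacna1H-/-, named for loss of the gene of the T-type calcium channel Cav3.2, and the other from C57BL/6 wild-type hosts; the series title asks about T-type channels of the tumour's surroundings. Both carry the same tumour line. There is 1 library per label, so the values of a library have no replicate, and the numbers, age and sex of the animals in each library are not stated in the sources. Intervals on levels and shares are exact 95% Poisson or binomial intervals and cover counting error only.

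The libraries held 8369 barcodes with 103261208 mouse UMIs (knockout label) and 7382 barcodes with 54556333 mouse UMIs (wild type label). The Gzmc-low NK cells summed to 3355977 UMIs under the knockout label and 1026503 under the wild type label. The median cell had 5871.5 UMIs and 2372 genes under the knockout label, and 4871 UMIs and 2097 genes under the wild type label. Gzmc-rich cells were deeper, with a median of 10689.5 UMIs under the knockout label and 9470 under the wild type label. The libraries shared 21 barcodes, 3 of them Gzmc-low cells under the knockout label. Under the wild type label no Gzmc-low cell held an Xist UMI and 129 held Y-linked UMIs. Under the knockout label 371 held Xist and no Y-linked UMI, 68 Y-linked and no Xist UMI, and 3 both, so that library pools cells of both sexes and the labels differ in sex makeup as well as in genotype. The rule also let in cells with UMIs of other lineages or with few cytotoxic UMIs. These were 26 cells with 6.44% of the UMIs under the knockout label (13 with UMIs of other lineages, 13 with few cytotoxic UMIs) and 9 cells with 15.4% of the UMIs under the wild type label (8 and 1). They are called atypical cells, and the comparisons are also given without them, a step chosen after the data were seen. Few cytotoxic UMIs means under 6 of Gzma, Prf1, Nkg7 and Ccl5, so the values of these genes without atypical cells depend on that choice.

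In the Gzmc-family count on which the cells were divided, most NK cells lay at 0. Under the knockout label 483 of 620 NK cells had none of these UMIs, and under the wild type label 146 of 244. Just inside the limit, 41 and 28 cells had exactly 1 UMI. Just outside it, 7 cells in each library had 2, and 6 and 3 cells had 3. Beyond the limit the counts spread widely, to 10 and 22 cells with 100 or more. Gzmc-low cells made up 84.5% (81.4 to 87.3) of the NK cells under the knockout label and 71.3% (65.2 to 76.9) under the wild type label. Of all filtered cells they were 7.97% (7.33 to 8.65) and 5.59% (4.81 to 6.46). Because a deeper cell is more likely to show a second UMI, every cell was also thinned to 2000 UMIs, which gave 89.7% and 78.0% of NK cells. Among cells with Y-linked and no Xist UMIs the shares were 93.2% (68 of 73 NK cells) and 69.0% (129 of 187). The share was higher under the knockout label in each of these counts, and no test is possible between 1 library and 1 library.

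**Figure D1:**
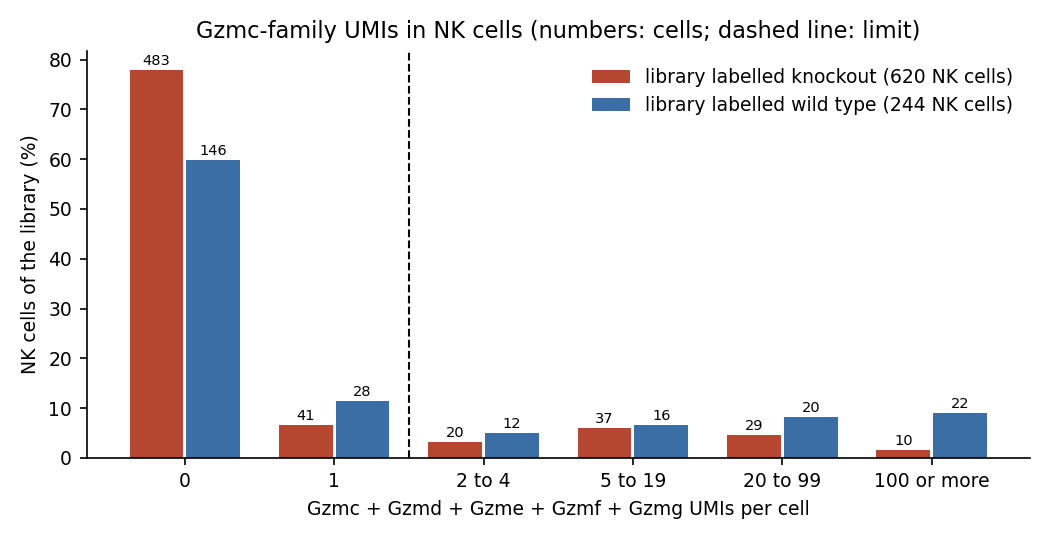
Share of NK cells (%) of each library by the number of Gzmc-family UMIs per cell, with the number of cells above each bar and the limit of the rule as a dashed line. In both libraries the bar at 0 UMIs is the highest, with 483 cells under the knockout label and 146 under the wild type label.

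The marker genes fit the name NK cell. Ncr1, the activating receptor NKp46, had 391 CPM (UMIs of a gene per 1000000 UMIs of the summed cells) under the knockout label and 394 CPM under the wild type label, and Klrb1c, the NK1.1 receptor, had 732 and 722 CPM. Both were used by the rule and are given as description. Of the markers that the rule did not use, Gzma was at 7978 CPM under the knockout label and 6970.3 CPM under the wild type label. Prf1, the perforin gene, had 605 (579 to 632) and 659 (610 to 710) CPM. Eomes, the transcription factor that separates NK cells from helper-like innate lymphoid cells, had 252 and 207 CPM, and Klra8, the activating receptor Ly49H, 481 and 413 CPM. No marker differed by more than 1.5-fold between the labels. A Gzma UMI was found in 94.8% of the Gzmc-low NK cells under the knockout label and 93.7% under the wild type label. In B cells, which do not make it, the share was 10.4% and 13.8% at median depths of 7441 and 4049.5 UMIs. For Prf1 the shares were 83.2% and 83.9%, against 4.11% and 1.72% of B cells.

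Genes of other cell types were low but not absent. The summed level of 10 T cell genes was 232 CPM under the knockout label and 152 CPM under the wild type label, where Cd4, Cd8a, Cd8b1 and Cd5 were at 0. A list of 8 genes of type 1 innate lymphoid cells (ILC1) summed to 294 and 279 CPM, with all 8 genes present. The 5 dendritic genes summed to 40.8 and 121 CPM, the 8 macrophage genes to 198 and 92.5 CPM and the 5 microglia genes to 88.8 and 34.1 CPM. The 5 B cell genes summed to 15.5 and 2.92 CPM, the 5 tumour genes to 25.3 and 15.6 CPM and the 6 division genes to 67.6 and 42.9 CPM. In the list of 4 neutrophil genes, S100a8 and S100a9 were at 0 in both libraries. Levels of the others, Csf3r and Retnlg, are not given here, and none of the 4 had enough UMIs to be tested against Gzmc-rich cells. The rule itself capped Cd3e, Cd3d, Trac, Lyz2, Sox2, Met, Mki67 and Top2a and required NK genes, so these sums are in part set by the choice of cells. Without the genes of the rule, the T cell list summed to 208 CPM under the knockout label and 128 CPM under the wild type label, the macrophage list to 178 and 76.0 CPM, the tumour list to 20.6 and 11.7 CPM and the division list to 45.6 and 19.5 CPM. The 4 NK markers outside the rule summed to 9316.8 and 8248.4 CPM.

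Cacna1h, the gene named in the genotype, gave 5 UMIs in 5 of 524 cells under the knockout label, which is 1.49 CPM (0.484 to 3.48). Under the wild type label there were 0 UMIs in 174 cells, which allows up to 1.72% of cells with a UMI, taking 3 cells as the limit behind a count of 0. The gene lies at chr17:25374285-25433783 (mm10, minus strand). The sources do not say which exons are missing from the allele, so these few UMIs do not check the label.

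**Figure D2:**
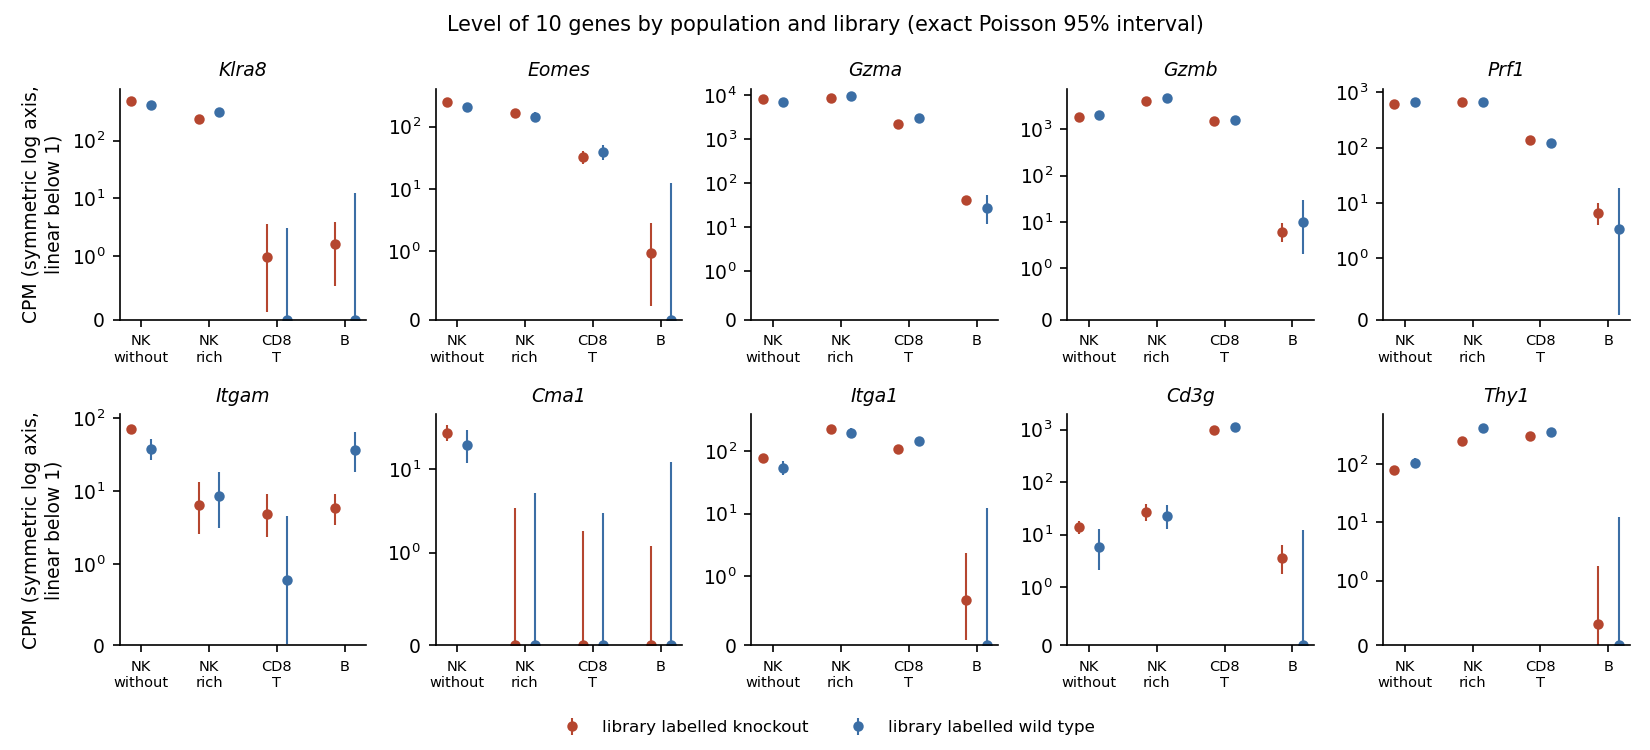
Level (CPM, symmetric log axis that is linear below 1) of 10 genes in Gzmc-low NK cells, Gzmc-rich NK cells, CD8 T cells and B cells, 1 point per library with its exact Poisson 95% interval. Prf1 lies at 605 and 659 CPM in the Gzmc-low cells and at 138 and 120 CPM in CD8 T cells (knockout label, then wild type label), and Cma1 is present in the Gzmc-low cells only among the 4 populations drawn.

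Within the population, receptors were distributed cell by cell. Klra7 (the inhibitory receptor Ly49G) had a UMI in 55.9% of cells under the knockout label and 48.3% under the wild type label, Klra4 (the activating Ly49D) in 51.5% and 43.1%, and Klra8 in 49.8% and 50.6%. Klra9 followed with 46.6% and 42.0%, Klra3 with 33.4% and 33.9% and Klra1 with 15.5% and 14.4%. Klra10, Klra6 and Klra5 were seen in 7.06%, 6.11% and 2.67% of cells under the knockout label, and in 2.87%, 1.15% and 1.72% under the wild type label. In B cells no Klra gene of the 9 had a UMI in more than 1.58% of cells in either library. A cell showed a median of 3 of the 9 Ly49 genes under the knockout label and 2 under the wild type label, and 7.44% and 13.2% of cells showed none. The Ly49 genes are close copies of each other, so reads may be split between them.

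Some pairs of receptors shared cells more often, and others less often, than the product of their shares. Klra8 and Klra4 had UMIs in the same cell in 32.4% (knockout label) and 27.6% (wild type label) of cells, above the products of 25.7% and 21.8%. Klra4 shared only 11.1% and 8.05% of cells with Klrc1, which encodes the inhibitory receptor NKG2A, below products of 18.7% and 16.6%. Klra8 and Klrc1 shared 13.5% and 14.4%, below 18.1% and 19.5%. Cd27, high on young NK cells, and Itgam, the integrin CD11b of mature ones, met in 8.40% and 3.45% of cells, where their products are 9.84% and 6.24%. The chemokine genes Ccl3 and Ccl4 met in 33.2% and 31.0%, above 25.3% and 24.3%. All of these directions were alike in both libraries; they are descriptions of detected UMIs at a median depth of 5871.5 and 4871 UMIs, in cells of 1 library that are not replicates.

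The genes that varied most among Gzmc-low cells, after thinning to 2000 UMIs, included genes of secreted effectors. Variance over mean was 13.4 (knockout label) and 10.7 (wild type label) for Ccl5, 10.96 and 9.98 for Gzma, 8.62 and 12.7 for Ccl4, and 7.16 and 9.57 for Gzmb. The median over the measured genes was 1.15 and 1.16. Xcl1, whose product attracts cross-presenting dendritic cells, had 4.53 and 3.89, and Klra4 had 3.68 and 3.30. Cst3 and Cd74 had still larger ratios, at 22.1 and 31.3 and at 12.1 and 26.5. Those 2 genes of antigen-presenting cells had 69.1% and 53.7% of their UMIs in the 5 cells richest in each.

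Against the Gzmc-rich NK cells of the same libraries, Gzmc-low cells had more of the chemokines Ccl5, Ccl3 and Ccl4, more of the integrins Itgam and Itga2 and of the transcription factors Zeb2 and Klf2, and less Gzmb, Itga1, Inpp4b, Ifitm2 and ribosome-making and glycolytic genes. UMIs were summed per library and population, giving 4 sums, and compared by edgeR's quasi-likelihood test with library as a term and Benjamini-Hochberg adjustment over 8294 genes. At an adjusted p under 0.05, 763 genes (9.2%) were higher and 878 (10.6%) lower in Gzmc-low cells. By DESeq2, a stricter alternative here, 110 of the same genes were higher and 188 lower, and its list counts below are to be read against these. Without atypical cells the numbers were 888 (11.3%) and 1012 (12.8%) of 7883. The fit leaves 1 residual degree of freedom, and the spread behind its p-values is moderated over all genes. A small p-value therefore does not show that a gene had like ratios in the 2 libraries. With 2 sums against 2, sums that do not overlap are a description only. The share of all tested genes whose sums do not overlap is not given here. The cells were divided by Gzmc-family UMIs, so those genes have no test, and genes whose UMIs accompany them in single cells differ by the choice of cells. Fold changes are on edgeR's scale (TMM normalization). On the plain CPM scale the median of the tested genes lies at 0.18 and 0.19 (log2, knockout and wild type label), so ratios of the CPM values printed here run higher than the fitted ones.

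Of 8 cytokine and chemokine genes tested, 4 rose and 3 fell (4 and 1 by DESeq2). Ccl5, a chemokine that draws T cells and myeloid cells, had 5730.4 CPM (knockout label) and 3479.8 CPM (wild type label) in Gzmc-low cells, against 709.8 and 639 CPM in Gzmc-rich cells. Both Gzmc-low sums lay far above both Gzmc-rich sums, with a log2 ratio of 2.54 ± 0.10 (SE; adjusted p 3.08e-19). Here and below, the SE is the log2 ratio divided by the square root of the test's F statistic. It restates that test and is no separate measure of spread. Ccl3 had 243 and 283 CPM against 56.2 and 19.7 CPM, a log2 ratio of 2.48 ± 0.21 (adjusted p 8.26e-11). Ccl4, its close relative, had 1128 and 1245 CPM against 423 and 209.8 CPM (log2 ratio 1.72, adjusted p 7.52e-11). Like Ccl5, these chemokines stood apart without overlap. Ifng, the interferon of NK cells, had 207 and 264 CPM against 92.1 and 66.2 CPM, with a log2 ratio of 1.31 ± 0.17 (adjusted p 3.09e-07). With every cell thinned to 2000 UMIs and the cells chosen again, its log2 ratio was 0.05 (adjusted p 0.94), so the call was lost there. Xcl1 fell, with 719 and 817 CPM in Gzmc-low cells against 1825 and 929 CPM, as did Ltb, with 161 and 197 CPM against 241 and 297 CPM. The fall of Xcl1 lay mainly under the knockout label. When atypical cells were left out, its log2 CPM ratio was -1.33 there and 0.07 (-0.08 to 0.23) under the wild type label. The median log2 ratio of the list was 0.68, against -0.01 over all genes tested.

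Among 16 cytotoxic granule genes, 1 rose and 5 fell, with a median log2 ratio of -0.26; by DESeq2 none rose and 3 fell. Gzmb had 1848 and 2022 CPM in Gzmc-low cells, against 4097 and 4844 CPM in Gzmc-rich cells, a log2 ratio of -1.40 ± 0.08 (adjusted p 3.5e-15). The groups did not overlap. Gzma differed less, with 7978 and 6970.3 CPM against 8633 and 9573 CPM (log2 ratio -0.48, adjusted p 5.31e-06). Prf1 did not pass the test, with 605 and 659 CPM against 667 and 670.3 CPM (adjusted p 0.059). Nkg7, a granule membrane protein, did not pass either, with 1994 and 1926 CPM against 1949 and 1774 CPM (adjusted p 0.34). Cst7, which encodes the protease inhibitor cystatin F, fell to 128 CPM in each library, against 248 and 241 CPM. The death ligands went apart: Tnfsf10 (TRAIL) fell, with 49.5 and 33.1 CPM against 103 and 60.6 CPM, and Fasl rose, with 221 and 171 CPM against 129.8 and 97.2 CPM.

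Of 17 trafficking genes, 8 rose and 1 fell (6 and 1 by DESeq2). Itga2, the integrin chain of the NK antigen DX5, had 309 and 239.6 CPM in Gzmc-low cells, against 53.4 and 42.2 CPM in Gzmc-rich cells, a log2 ratio of 2.33 ± 0.17 (adjusted p 2.42e-12). Itga1, the collagen-binding chain CD49a of ILC1 and tissue-resident cells, went the other way, with 77.8 and 54.6 CPM against 228 and 199 CPM (log2 ratio -1.86, adjusted p 6.29e-11). Neither gene's sums overlapped. Itgam had 69.7 and 37.99 CPM against 6.44 and 8.45 CPM (log2 ratio 2.76 ± 0.35, adjusted p 2.58e-07). The chemokine receptor gene Cxcr4 had 73.0 and 80.9 CPM against 12.9 and 15.5 CPM (log2 ratio 2.25). S1pr1, the receptor with which lymphocytes leave tissue for blood, had 67 and 13 UMIs in Gzmc-low cells and none in Gzmc-rich cells. With 3 counts per library standing in for 0, it was 7.23-fold and 3.00-fold higher under the knockout and wild type labels. The counting error of its own UMIs is not in these folds. Itga4 and Itgb1, the chains of VLA-4, rose by 0.67 and 0.65 on the log2 scale, while the tissue-retention marker Cd69 did not pass (269 and 344 CPM against 291 and 208 CPM).

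The integrin gene Itgam is also a member of the maturation list, and Itga1 of the ILC1 and TGF-beta list. In the maturation list 4 of 13 genes rose and 2 fell (2 and 2 by DESeq2), with a median log2 ratio of 0.14. Zeb2, Itgam and Cma1, genes of mature NK cells, rose together with Tcf7, a gene of early ones, while Thy1 and Ltb fell. Without atypical cells Cd27 rose too, with 5 up and 3 down. Zeb2, a repressor needed for terminal NK maturation, had 333 and 295 CPM in Gzmc-low cells, against 98.5 and 87.3 CPM in Gzmc-rich cells (log2 ratio 1.56 ± 0.15, adjusted p 7.51e-10). Thy1 had 80.2 and 105 CPM against 246 and 413 CPM (log2 ratio -1.97 ± 0.14, adjusted p 2.42e-12). Of 16 genes in the ILC1 and TGF-beta list, 7 fell, among them Inpp4b, Ikzf2 and Tmem176a, and 1 rose (Skil); by DESeq2 2 fell. Inpp4b, a phosphoinositide phosphatase, had 192 and 251 CPM in Gzmc-low cells against 704 and 683 CPM. The 8 ILC1 markers alone summed to 294 and 279 CPM in Gzmc-low cells, against 636 and 483 CPM in Gzmc-rich cells. Eomes did not pass the test with all cells (252 and 207 CPM against 166 and 144 CPM, adjusted p 0.0558), and did so without atypical cells (adjusted p 0.0062).

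Other transcription factor genes that rose were Klf2, which keeps lymphocytes quiescent and circulating, with 694 and 695 CPM in Gzmc-low cells against 244 and 155 CPM (log2 ratio 1.59 ± 0.13), and Nr4a1, with 127 and 138 CPM against 44.2 and 46.5 CPM. Id2 and Ikzf2 fell. In all, 5 of 21 rose and 2 fell (3 and 0 by DESeq2). When atypical cells were left out, 10 rose, Tbx21, Gata3, Ets1 and Maf among them, and 2 fell. Cytokine receptors divided evenly, with 4 of 14 up and 4 down (3 and 1 by DESeq2). Il18r1 and Il18rap, the chains of the interleukin 18 receptor, rose, with 487 and 299 CPM against 199 and 88.7 CPM for Il18r1 and 365 and 290.3 CPM against 146 and 128 CPM for Il18rap. Il2ra, the high-affinity chain of the interleukin 2 receptor, fell to 3.28 and 10.7 CPM, against 36.8 and 35.2 CPM. Il2rb, the chain all NK cells use, had 1133 and 1006 CPM against 1051 and 946 CPM and did not pass (adjusted p 0.531).

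Of 19 activating receptor and adaptor genes, 3 rose and 5 fell, and of 16 inhibitory receptor genes 2 rose and 5 fell. By DESeq2 none rose in either list, and 3 and 1 fell; Klra8 had an adjusted p of 0.25 there. Klra8 rose, with 481 and 413 CPM in Gzmc-low cells against 239 and 313 CPM in Gzmc-rich cells (log2 ratio 0.53, adjusted p 0.0043). Cd247, the CD3 zeta adaptor, rose with 304 and 212 CPM against 131 and 132 CPM, and Cd160, a receptor for non-classical MHC, fell to 35.2 and 71.1 CPM against 109 and 128 CPM. The adaptor genes Tyrobp and Fcer1g fell by 0.49 and 0.40 on the log2 scale. Klra5 fell furthest among inhibitory receptors, with 18.2 and 10.7 CPM against 81.0 and 78.9 CPM (log2 ratio -2.55), although 55.6% of its UMIs in Gzmc-low cells came from 5 cells. Klra7 had 526 and 406 CPM against 429 and 327 CPM and did not pass (adjusted p 0.584).

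In the activation and growth list 11 of 15 genes fell and none rose, with a median log2 ratio of -0.79, and 5 of them fell by DESeq2. Ncl and Npm1, nucleolar proteins of ribosome assembly, had 426 and 527 CPM and 681 and 831 CPM in Gzmc-low cells, against 755 and 931 CPM and 1177 and 1322 CPM in Gzmc-rich cells. Pgk1, a glycolytic kinase, had 62.0 and 90.6 CPM against 109.6 and 196 CPM (log2 ratio -1.15, adjusted p 2.79e-06). Immediate early and heat shock genes went up, 10 of 12 with 1 down (Hsp90aa1), Fos having 341 and 529 CPM against 205 and 197 CPM. Genes of this family are known to respond to the handling of tissue. By DESeq2 2 of them passed, all higher. In the store-operated calcium and NFAT list 4 of 12 rose and none fell (2 and 0 by DESeq2). Nfatc1, a calcium-driven transcription factor, had 215 and 225 CPM against 85.6 and 80.3 CPM (log2 ratio 1.20 ± 0.16, adjusted p 3.76e-07). Orai1, the pore of the store-operated channel, did not pass with all cells, at 93.6 and 145 CPM against 68.1 and 73.2 CPM (adjusted p 0.053). When atypical cells were left out, 7 of the 12 genes rose and none fell, and Orai1, Stim1 and Stim2 were among those that rose.

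In the interferon response list 10 of 18 rose and 1 fell, and 8 rose and 1 fell without atypical cells, but by DESeq2 none of the 18 rose and 1 fell. Ly6a fell, with 108 and 69.2 CPM in Gzmc-low cells against 307 and 92.9 CPM in Gzmc-rich cells, and 40.2% of its UMIs in Gzmc-low cells were in 5 cells. None of 8 sterol synthesis genes passed at an adjusted p under 0.05 by edgeR or DESeq2, and 0 had an unadjusted p under 0.05 by edgeR.

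Of the genes with the highest log2 ratios, Plxnc1, a semaphorin receptor, had 87.0 and 71.1 CPM in Gzmc-low cells, against 5.52 and 2.82 CPM (log2 ratio 3.97 ± 0.36, adjusted p 2.4e-10). Xylt1, an enzyme of proteoglycan synthesis, had 78.7 and 72.1 CPM against 8.29 and 11.3 CPM (log2 ratio 2.80). Rap1gap2, a regulator of the GTPase Rap1, had 111 and 124 CPM against 15.7 and 14.1 CPM (log2 ratio 2.75). In all of these the groups stood apart without overlap, in genes chosen by large ratios of the same sign in both libraries. Wdfy4, Sgcz, Pkib, Creb5, Iigp1, Plbd1, Nav3 and Naaa also met the rule for named genes, but 65.1% to 85.6% of their UMIs in Gzmc-low cells came from the 5 cells richest in each. At the low end, Ifitm2, an interferon-induced membrane protein, had 29.2 and 85.7 CPM in Gzmc-low cells, against 502 and 689 CPM (log2 ratio -3.78 ± 0.17, adjusted p 4.72e-18). Sema6d fell to 13.7 and 14.6 CPM against 118 and 176 CPM. S100a4, a calcium-binding protein of motile cells, fell to 31.0 and 51.6 CPM against 168 and 287 CPM, and Ctla4, a checkpoint receptor, to 85.2 and 45.8 CPM against 246 and 187 CPM. Igflr1, Spp1, Cdh1 and Ehd1 were also at the low end, with log2 ratios between -3.23 and -1.88. Ifitm1 had a log2 ratio of -3.39 (adjusted p 2.36e-10), with an adjusted p of 0.11 by DESeq2. Of its UMIs in Gzmc-low cells, 80.7% came from 5 cells. Without atypical cells its log2 ratio was -5.46, with 15.0 and 4.61 CPM against 484 and 463 CPM. Ifitm2 then had 29.0 and 11.5 CPM against 512 and 696 CPM.

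**Figure D3:**
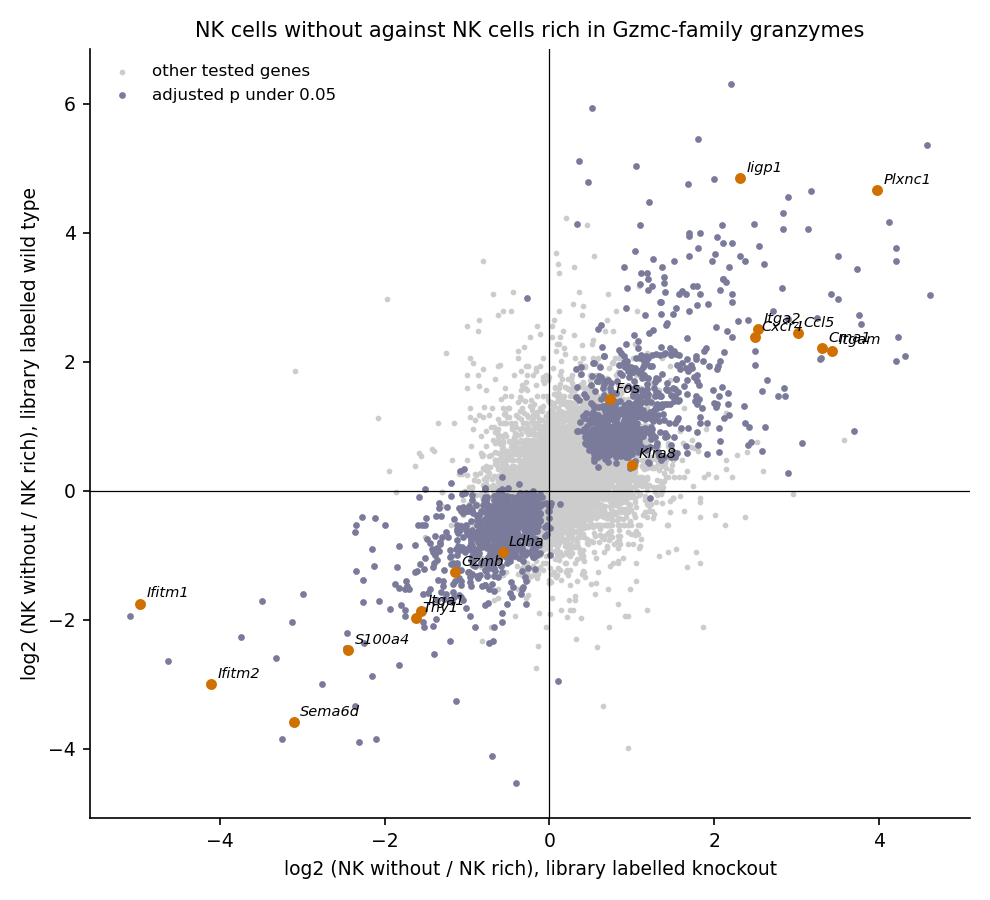
Log2 ratio of Gzmc-low over Gzmc-rich NK cells for each tested gene, under the knockout label (horizontal) and the wild type label (vertical), as CPM ratios with 3 counts standing in for 0. Darker points passed an adjusted p under 0.05 and orange points carry gene names, and Ccl5, Itgam and Itga2 lie at the upper right while Ifitm2, Itga1 and Gzmb lie at the lower left in both libraries.

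The Gzmc-family genes sit in a row of chymase and granzyme genes on chromosome 14, and the gene at the other end of that row behaved in the opposite way. Cma1, which encodes mast cell chymase and is also transcribed by mature mouse NK cells, had 92 and 20 UMIs in Gzmc-low cells (27.4 and 19.5 CPM, knockout label and wild type label). It had 0 UMIs in the Gzmc-rich cells and 0 in CD8 T cells of either library. Set against 3 counts per library, it was 9.93-fold and 4.61-fold higher than in Gzmc-rich cells (edgeR adjusted p 5.98e-07, but 0.71 by DESeq2). The counting error of its own UMIs is not in these folds. Cma1 was present in 11.3% and 7.47% of Gzmc-low cells. Gzmc, which the rule used, had 10.4 and 20.5 CPM in Gzmc-low cells and 3392 and 11319 CPM in Gzmc-rich cells. In mm10, Cma1 lies at chr14:55941451-55944675, Gzmc at chr14:56231441-56234656 and Gzmb at chr14:56258838-56262260, all on the minus strand. Gzmc starts 290 kb and Gzmb 318 kb from the start of Cma1. Between them, Mcpt1 and Mcpt2, mast cell proteases, had 25 and 18 UMIs in Gzmc-low cells under the knockout label and 1 each under the wild type label, and Ctsg and Gzmn had none. Gzmb, next to Gzmc, was in both NK populations.

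The promoters of these 3 genes are shown because their messages split the NK cells in different ways. Each is the RefSeq window (GRCm38.p6) of 250 bases before and 50 bases after the RefSeq start of the gene, 5′ to 3′ on the gene's strand. The RefSeq start of Gzmb lies 74 bases upstream of its GENCODE start given above, so its window ends before that position, while the starts of Cma1 and Gzmc differ by 0 and 1 base. Capitals mark matches on either strand to GGTGTGA (a T-box core, the motif of Eomes), TGTGGT (a RUNX core) and TTCNNNGAA (a STAT site).
Cma1 promoter, chr14:55944626-55944925, minus strand: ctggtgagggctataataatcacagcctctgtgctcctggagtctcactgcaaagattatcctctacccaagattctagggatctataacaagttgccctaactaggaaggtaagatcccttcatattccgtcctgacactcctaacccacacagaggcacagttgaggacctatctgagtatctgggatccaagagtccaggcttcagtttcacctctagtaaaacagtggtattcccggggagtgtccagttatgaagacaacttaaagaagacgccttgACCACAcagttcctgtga
Gzmc promoter, chr14:56234608-56234907, minus strand: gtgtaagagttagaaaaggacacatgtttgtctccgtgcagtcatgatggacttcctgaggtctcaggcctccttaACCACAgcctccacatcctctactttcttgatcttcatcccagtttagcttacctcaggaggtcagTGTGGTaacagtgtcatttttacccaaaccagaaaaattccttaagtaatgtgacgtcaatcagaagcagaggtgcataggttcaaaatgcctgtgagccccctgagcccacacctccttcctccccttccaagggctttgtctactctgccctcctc
Gzmb promoter, chr14:56262285-56262584, minus strand: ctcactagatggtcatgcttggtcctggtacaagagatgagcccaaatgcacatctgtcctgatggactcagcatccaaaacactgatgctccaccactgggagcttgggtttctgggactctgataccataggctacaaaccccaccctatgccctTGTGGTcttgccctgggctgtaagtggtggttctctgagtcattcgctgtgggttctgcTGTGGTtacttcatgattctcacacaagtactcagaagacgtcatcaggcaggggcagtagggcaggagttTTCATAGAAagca
None of the 3 windows holds the T-box letters. The Cma1 window has 1 RUNX match, the Gzmc window 2, and the Gzmb window 2 together with 1 STAT match. Over 32851 RefSeq promoter windows of this length 3.98% hold the T-box letters, 16.8% the RUNX letters and 8.30% the STAT letters. A match is a description of letters and not evidence of binding.

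**Figure D4:**
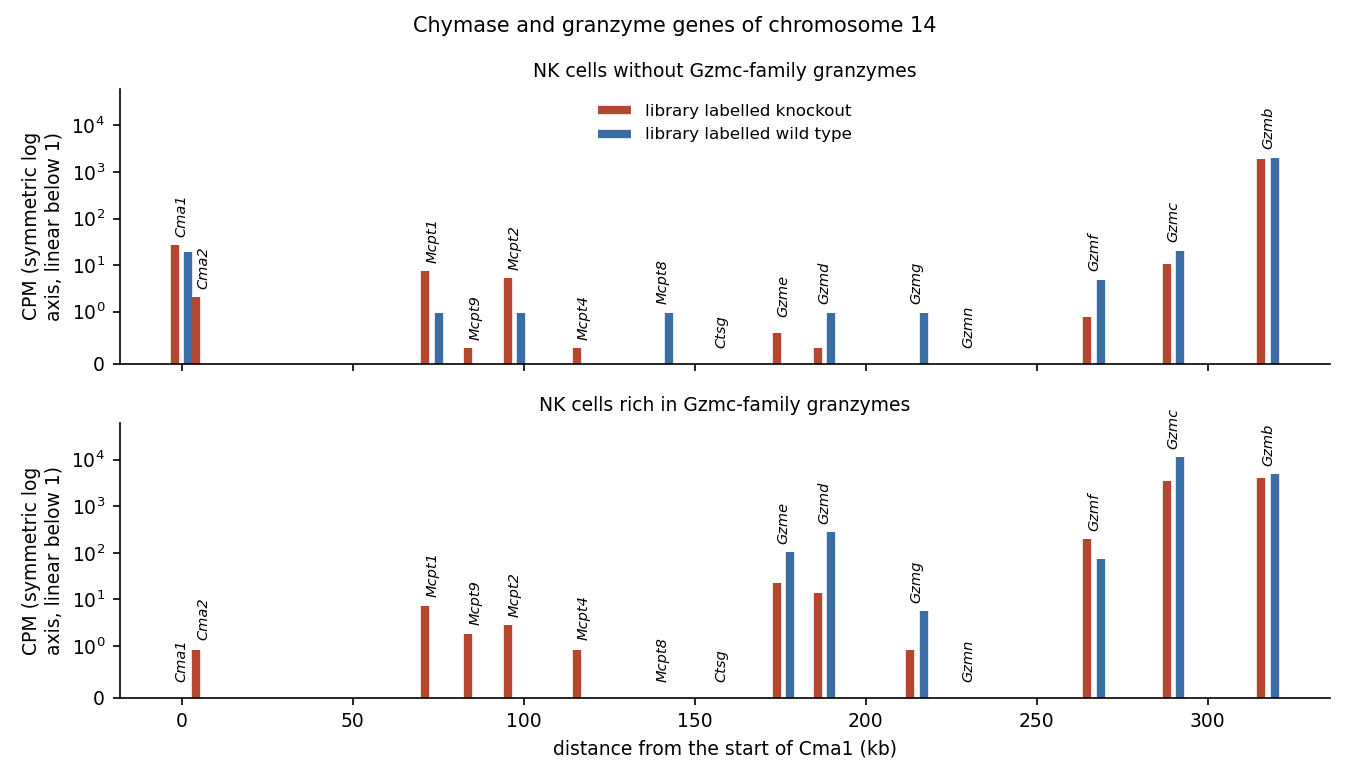
Level (CPM, symmetric log axis that is linear below 1) of the chymase and granzyme genes of chromosome 14 by distance from the start of Cma1 (kb), in Gzmc-low NK cells and Gzmc-rich NK cells, 1 bar per library. Cma1 shows at 27.4 and 19.5 CPM in Gzmc-low cells and is at 0 in Gzmc-rich cells, while Gzmc is at 3392 and 11319 CPM in Gzmc-rich cells.

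CD8 T cells of the same libraries (209 and 154 cells, knockout label and wild type label, chosen by Cd3 and Cd8 genes) are the other large killer population. The choice also required under 2 UMIs over the NK genes Ncr1, Klrb1c and Klre1 in the CD8 T cells. Against the CD8 T cells, 756 of 9460 genes (7.99%) were higher and 732 (7.74%) lower in Gzmc-low NK cells at an adjusted p under 0.05 in the same test. By DESeq2 270 were higher and 257 lower. Without atypical cells 12.9% of 8953 genes were higher and 12.9% lower. Prf1 had 605 and 659 CPM in Gzmc-low NK cells, against 138 and 119.7 CPM in CD8 T cells (log2 ratio 2.23 ± 0.13, adjusted p 8.71e-06). Gzma had 7978 and 6970.3 CPM against 2141 and 3058 CPM (log2 ratio 1.49, adjusted p 0.000205). Gzmk, the granzyme of less differentiated T cells, was lower in the NK cells, with 8.94 and 4.87 CPM against 124 and 138 CPM (log2 ratio -4.09). Of 18 granule genes, 7 were higher and 2 lower. Gzmb was close, with 1848 and 2022 CPM against 1517 and 1571 CPM (adjusted p 0.0418), and its log2 ratio of 0.27 turned to -0.52 after thinning.

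Receptor genes were among those with the largest ratios to CD8 T cells. NK receptor genes were required in the NK cells and capped in the CD8 T cells. Ratios of receptor genes that accompany them in single cells therefore depend in part on the choice of cells. Of 18 activating receptor and adaptor genes, 12 were higher and 4 lower (Cd226, Crtam, Cd160 and Cd247), with a median log2 ratio of 2.05. Klra4 had 773 and 544 CPM in Gzmc-low NK cells, against 1 UMI in the CD8 T cells of each library. Klra8 had 1615 and 424 UMIs in the NK cells, against 2 and 0 UMIs in CD8 T cells. Sh2d1b1, the adaptor EAT-2 of SLAM receptors, had 312 and 74 UMIs against none. Tyrobp, the DAP12 adaptor through which activating Ly49 receptors signal, had 1476 and 1272 CPM against 198 and 90.6 CPM (log2 ratio 3.25). Klrb1a, Klra9 and the hydrolase gene Aoah were the other genes of the largest ratios. Lower in the NK cells were the T cell genes Themis, Slamf1, Tcrg-C2, Cd6 and Cd5, in a comparison with cells chosen by T cell genes, and Fam20a. Themis had 2.68 and 0 CPM against 663 and 858 CPM. The checkpoint gene Pdcd1 had 2.09 and 0 CPM against 158 and 110.0 CPM.

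Of 21 transcription factor genes 11 were higher and 3 lower (Tox, Ikzf2 and Rora). Eomes had 252 and 207 CPM in Gzmc-low NK cells against 32.3 and 38.8 CPM in CD8 T cells (log2 ratio 2.67 ± 0.17, adjusted p 1.87e-05). Irf8 had 934 and 849 CPM against 222 and 223 CPM (log2 ratio 1.95). Among 10 cytokine and chemokine genes, Xcl1 alone was higher, with 719 and 817 CPM against 137 and 189 CPM (log2 ratio 2.20 ± 0.12, adjusted p 8.71e-06), and Tnf, Csf1, Lta, Ltb and Ccl5 were lower. Ccl4 had 1128 and 1245 CPM against 1322 and 763 CPM and did not pass (adjusted p 0.593). The chemokine receptor Cxcr6, a mark of resident T cells and ILC1, had 8.64 and 6.82 CPM against 249 and 223 CPM (log2 ratio -4.93). No gene of the interferon list was higher and 10 of 19 were lower; Ifit3 had 44.4 and 55.5 CPM against 153 and 100.3 CPM. In the growth list 7 of 15 were lower and none higher, and in the immediate early and heat shock list 7 of 12 were higher and none lower. By DESeq2 0 interferon genes were higher and 4 lower, 0 growth genes higher and 4 lower, and 4 immediate early and heat shock genes higher and 0 lower.

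Between the labels, few genes of the Gzmc-low NK cells differed past 2-fold. Over 5880 genes with at least 100 UMIs in the members of both libraries together, 53 (0.901%) were higher by 2-fold or more under the knockout label and 82 (1.39%) lower by 2-fold or more. Past 1.5-fold, 288 (4.9%) were higher and 266 (4.52%) lower. Without atypical cells 39 (0.706%) of 5527 were 2-fold higher and 12 (0.217%) 2-fold lower, and past 1.5-fold 4.67% were higher and 2.39% lower. These are sizes between 1 library and 1 library, with no test.

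Of the genes higher under the knockout label, Dnah8, a dynein heavy chain gene, had 81.6 CPM, against 10.7 CPM under the wild type label, a log2 ratio of 2.93 (2.07 to 3.95). It was also higher in Gzmc-rich NK cells (log2 ratio 3.63), CD8 T cells (2.17) and B cells (2.30). Glo1, which detoxifies methylglyoxal, had 75.4 and 20.5 CPM (log2 ratio 1.88, 1.24 to 2.60). Both genes lie on chromosome 17, as Cacna1h does, at chr17:30624354-30877365 (plus strand) and chr17:30584936-30626871 (minus strand). Their spans overlap only between 30624354 and 30626871, at the starts of both genes. Reads within that stretch can be told apart only by strand. Slamf6, a SLAM-family receptor, had 58.4 and 15.6 CPM (log2 ratio 1.91), and Ifi214, an interferon-inducible gene, 53.3 and 18.5 CPM (log2 ratio 1.53). Ifi214 was 0.30 among cells with Y-linked and no Xist UMIs. It was also higher in Gzmc-rich NK cells (log2 ratio 3.85), CD8 T cells (0.75) and B cells (1.53). In macrophages its ratio was 2.37 and in tumour cells 3.99. Zfp831, Atp5k, Cradd, Mrps21, Dennd1c, Dpm3 and Itgam were also among the 12 highest.

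The 12 lowest by the same rule were Nupr1, Syt4, Tma16, Rhoj, Ifitm1, Sox4, Plbd1, Wdfy4, H1f0, Sema6a, Itgae and Pkib. For each of them 60.1% to 95.2% of the UMIs lay in the 5 richest cells, and Nupr1 had 3.58 CPM under the knockout label and 90.6 CPM under the wild type label. Without atypical cells the lowest were led by Ifi206, a further interferon-inducible gene, with 36.9 CPM under the knockout label and 101 CPM under the wild type label (log2 ratio -1.46, -1.87 to -1.04). It was lower in Gzmc-rich NK cells (-2.32) and CD8 T cells (-1.39) too. Cd160 followed with 35.99 and 84.0 CPM (log2 ratio -1.22), and Hsph1, a heat shock protein, with 45.9 and 100.2 CPM (log2 ratio -1.13). Cd226, the activating receptor DNAM-1, had 71.0 and 134 CPM (log2 ratio -0.91).

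The gene lists are read against the shares past 1.5-fold over all 5880 genes, 4.9% higher and 4.52% lower. Of 16 cytotoxic granule genes measured, 1 was higher past 1.5-fold (Unc13d, a vesicle priming factor, 33.4 CPM under the knockout label and 18.5 CPM under the wild type label) and none lower, with a median log2 ratio of 0.04. Gzmb had 1848 (knockout label) and 2022 CPM (wild type label), a log2 ratio of -0.13 (-0.20 to -0.06). None of 21 transcription factor genes passed 1.5-fold. Among 7 cytokine and chemokine genes Ccl5 alone did, with 5730.4 and 3479.8 CPM (log2 ratio 0.72, 0.67 to 0.77, and 0.58 without atypical cells, just under 1.5-fold, where the choice of cells used Ccl5). In Gzmc-rich NK cells the same ratio was 0.15 and in CD8 T cells 0.47. Ifng had 207 and 264 CPM and Xcl1 719 and 817 CPM, both within 1.5-fold.

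Receptors that bind antibody and stress ligands, and their adaptors, differed in both directions. Fcgr3, the Fc receptor CD16 through which NK cells bind antibody, had 105 CPM under the knockout label and 48.7 CPM under the wild type label (log2 ratio 1.11, 0.68 to 1.56). Fcer1g, the signalling chain that CD16 pairs with, went the other way, with 1186 and 1884 CPM (log2 ratio -0.67, -0.75 to -0.59). Hcst, the DAP10 adaptor of NKG2D, had 341 and 206 CPM (log2 ratio 0.73, 0.52 to 0.95). Without atypical cells these were 1.44, -0.80 and 0.61. Fcer1g was lower under the knockout label in Gzmc-rich NK cells as well (-0.59), while in CD8 T cells it was higher (0.35). Fcgr3 and Fcer1g lie near each other at chr1:171051174-171064935 and chr1:171229572-171234365. Slamf6 (chr1:171917515-171953170), Ifi206 (chr1:173468485-173491041) and Ifi214 (chr1:173519717-173535957) lie in the same part of chromosome 1. A role of position was not tested. Fcgr3 is also a gene of macrophages, and in both libraries its level in the NK cells was under 20% of that in the population where it was highest. With Cd160 and Cd226, 2 of 18 genes of this list were higher and 3 lower past 1.5-fold.

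Among the other lists, Il18r1 had 487 CPM under the knockout label and 299 CPM under the wild type label (log2 ratio 0.70) and Itgam 69.7 and 37.99 CPM (log2 ratio 0.88, 0.38 to 1.40). Klra1, the inhibitory Ly49A, had 127 and 82.8 CPM (log2 ratio 0.62). Without atypical cells Il18r1 and Klra1 were both at 0.55, under 1.5-fold, and no gene of the cytokine receptor or inhibitory receptor list passed. In the calcium and NFAT list Orai1 alone of 12 passed 1.5-fold, with 93.6 and 145 CPM (log2 ratio -0.63, -0.92 to -0.34), and at -0.56 it was under 1.5-fold without atypical cells. Nme1, a nucleotide kinase of the growth list, had 179 and 292 CPM (log2 ratio -0.71). Fos and Fosb had 341 and 529 CPM and 173 and 271 CPM, with 4 of 12 immediate early and heat shock genes lower; without atypical cells 1 was. In the interferon list 1 of 18 was higher and 7 lower, with a median log2 ratio of -0.46. Without atypical cells 4 were higher and 1 lower, with a median of 0.14.

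**Figure D5:**
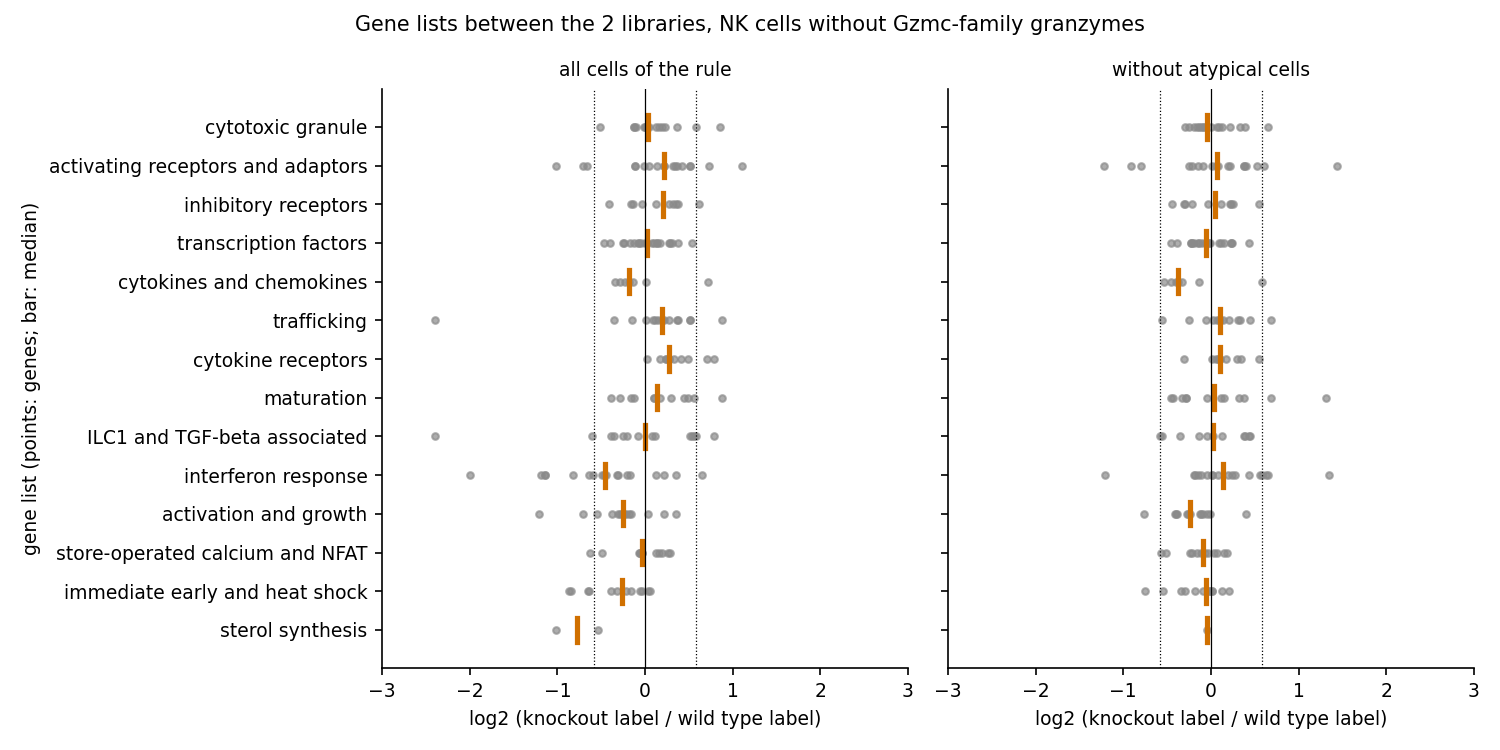
Log2 ratio of the knockout label over the wild type label for each measured gene (points) of the gene lists, with the list's median (bar), for all Gzmc-low NK cells and without atypical cells. The median of the interferon response list is -0.46 on one side and 0.14 on the other, while that of the cytotoxic granule genes stays near 0 in both.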

How the data were processed

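The libraries are 10x Genomics 3' v3.1 single-cell libraries, 1 per label. The authors deposited sparse matrices of UMI counts. Cell Ranger 7.1.0, the mm10 build and Seurat 5.0.2 are named in the submitters' processing notes, with no role for Seurat. The tables list human and mouse genes, and mouse genes were used. Gene positions came from GENCODE M21, promoter sequence from RefSeq.

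The members, gene lists and rules were chosen with earlier results of these data known. UMIs were summed per library and population. Populations of both libraries were compared with edgeR 4.0.16 (R 4.3.3; quasi-likelihood test, TMM, filterByExpr, library as a term, Benjamini-Hochberg), with DESeq2 1.42.0 as an alternative. On simulated counts for the comparison of Gzmc-low with Gzmc-rich cells (8352 genes), edgeR called 90 of 95 genes changed 2-fold, all 105 changed 4-fold and 7 of 8152 unchanged ones. The simulated library effect was the same in both populations, the added spread was fixed and small, and only genes above a set level were changed. The simulation therefore does not measure the error rate in the real counts, where some population ratios differed between libraries. Between labels, CPM ratios with exact conditional intervals were used, with 3 counts in place of 0 and genes of at least 100 UMIs.

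Genes were named by rule: between labels the 12 highest and 12 lowest with at least 50 CPM and at least 20% of the level in any other population of 50 or more cells; against Gzmc-rich NK cells the 12, and against CD8 T cells the 6, at each end among genes past an adjusted p of 0.05, with at least 50 CPM and the same sign in both libraries. From each list the 4 members with the largest difference and the 3 with the most UMIs could be given values. Mitochondrial, ribosomal protein, sex-linked, immunoglobulin and numbered genes and the genes of the rule were left out.

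Atypical cells, a filter chosen after seeing the data, had at least 20 MHC class II, 3 Siglech, 10 Csf1r, C1qa and C1qb or 3 Cd79a, Cd79b and Ms4a1 UMIs, or, among NK cells, under 6 UMIs of Gzma, Prf1, Nkg7 and Ccl5. No doublets were removed from the main values. Scrublet (scanpy 1.11.5) called 164 cells (2.49%) under the knockout label and, taking the expected number since its own threshold marked 0.289%, 80 cells (2.57%) under the wild type label; 6 and 5 were Gzmc-low NK cells. Sums used scipy 1.17.1 and pandas 2.3.3 in Python 3.11.15, and figures matplotlib 3.10.9.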

Additional observations from a re-analysis of the deposited data

Results flagged for a closer look

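The deposited tables also list human genes, which the comparisons do not use. In Gzmc-low NK cells their UMIs came to 0.0183% of the mouse UMIs under the knockout label, and there is no control sample to set this against.

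On the plain CPM scale some list members had ratios of opposite sign in the libraries, and the difference between libraries was not tested. Against Gzmc-rich cells the median tested gene lies at 0.18 and 0.19 on that scale. The sign of a small ratio, as for Srgn, therefore depends on the scale. Each value here is the log2 ratio under the knockout label minus that under the wild type label. For Gzmc-low over Gzmc-rich NK cells the difference was -0.47 for Srgn, 0.72 for Serpinb6b, -1.16 for Klra1, -1.89 for Itgae and -1.36 for Odc1. Without atypical cells Itgae was lower in both libraries, at -2.05 under the knockout label and -1.14 under the wild type label, with 68.8% of its UMIs in Gzmc-low cells in 5 cells. Against CD8 T cells it was -3.75 for Klra5, 1.19 for Ifng, -0.94 for Ccl4, -2.55 for Oasl2, -1.27 for Odc1 and -1.92 for Egr1.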

How the results depend on the processing

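No paired analysis was possible because each label has 1 library, as far as the labels are compared. The comparisons of populations are paired within each library by the library term. Leaving out a library leaves no spread to test, so the values of each library stand beside each test in its place.

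Limits: with 1 library per label, genotype, sex makeup, animals and handling cannot be told apart. Thinning to 2000 UMIs also chose the cells again: Gzmc-rich cells then numbered 57 (knockout label) and 47 (wild type label) in place of 96 and 70, so depth and membership cannot be told apart in its values.

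The share of NK cells without Gzmc-family UMIs became 77.9% (knockout label) and 59.8% (wild type label) with a limit of 0 UMIs, where they were 4.69% of filtered cells under the wild type label, 89.7% and 78.0% after thinning, and 93.2% under the knockout label among cells with Y-linked and no Xist UMIs.

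Against Gzmc-rich NK cells the higher and lower calls numbered 184 and 249 after thinning, 78 and 41 among cells with Y-linked and no Xist UMIs, 110 and 188 by DESeq2 and 186 and 219 without the library term, in place of 763 and 878. Of the 763, 158 were shared with the thinned counts and 110 with DESeq2. Egr1 turned to -0.23 (log2) among cells with Y-linked and no Xist UMIs. Against CD8 T cells they numbered 1158 and 1159 without atypical cells and 270 and 257 by DESeq2, and 434 were lower without the library term, in place of 756 and 732. Gzmb turned to -0.52 after thinning and -0.15 among cells with Y-linked and no Xist UMIs. The alternatives for RLE size factors, mitochondrial and gene filters, shared barcodes and no low-count filter left all 4 counts within 1.5 times.

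Between the labels, the counts past 2-fold (53 higher, 82 lower) became 14 and 4 after thinning, 8 and 45 among cells with Y-linked and no Xist UMIs, 295 and 286 with genes of at least 30 UMIs, and 7 and 15 with at least 300. Lower genes numbered 54 with a limit of 0 UMIs, 50 without Scrublet calls, 12 without atypical cells and 39 from the mean of per-cell CPM.

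The sign of some log2 ratios turned, with 3 counts in place of 0, and the cause was not tested. Without atypical cells the log2 ratio of the knockout over the wild type label was 0.95 for Nupr1, 0.47 for Syt4, 1.95 for Rhoj, 1.70 for Ifitm1, 0.47 for Plbd1, 0.48 for Sema6a, 3.54 for Pkib, -0.024 for Il7r, 0.63 for Iigp1, 0.20 for Irgm1, 0.12 for Egr1 and 0.34 for Hmgcs1, and the median of the sterol genes measured with all cells was 0.15. After thinning it was 0.43 for Syt4, Tma16 and Rhoj, 1.28 for Ifitm1, 1.32 for Sema6a, 1.47 for Iigp1, 0.32 for Irgm1, 0.10 for Odc1, 0.49 for Egr1 and 0.21 for Hspa1a. Among cells with Y-linked and no Xist UMIs it was 0.52 for Nupr1, 1.52 for Syt4, 0.19 for Tma16, 2.52 for Rhoj and 1.82 for Sema6a. With a limit of 0 UMIs it was 2.14 for Syt4, 2.66 for Rhoj, 0.41 for Sema6a, 0.65 for Iigp1, 0.087 for Irgm1 and 0.40 for Egr1. Without Scrublet calls Hmgcs1 was 0.26 and the sterol median 0.072, and from the mean of per-cell CPM Hmgcs1 was 0.069.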
